A study of Homo sapiens with 2 samples.

Results

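The genes described here are 10 members of the S100 and annexin families, S100A4, S100A6, S100A10, S100A11, S100A13, S100A16, ANXA1, ANXA2, ANXA5 and ANXA6, taken from a list by name among the 33538 genes counted. They were measured in single cells of CHLA9 and TC71, human cell lines grown from Ewing sarcoma, a tumor of bone and soft tissue that is driven by the EWSR1-FLI1 fusion. CHLA9 was kept in IMDM with 20% serum and a supplement of insulin, transferrin and selenium, and TC71 in RPMI-1640 with 10% serum. Neither line received a drug or a genetic change, and each is represented by 1 library. The study used the lines to look for developmental expression programs within Ewing sarcoma.

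S100 proteins are small calcium sensors with a pair of EF-hand motifs, and most work by docking onto another protein when calcium rises. Annexins bind acidic phospholipids in the presence of calcium and so connect membranes with the cytoskeleton. The families meet in defined complexes: S100A10, which has lost calcium binding, holds ANXA2 at the plasma membrane and there takes part in plasmin formation, while S100A11 is a partner of ANXA1.

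Cells with at least 5000 unique molecular identifiers (UMIs, each standing for 1 captured transcript), at least 2000 genes and at most 15% of UMIs from mitochondrial genes were kept. This left 4524 CHLA9 cells with 174975302 UMIs and 1729 TC71 cells with 58355173 UMIs, at a median of 34656 and 33370 UMIs per cell. In TC71, 5869 of 8468 barcodes fell under the UMI minimum. Of all barcodes 16 occurred in both libraries, 3 of them among kept cells. All 6 Ewing sarcoma markers examined were detected in both lines, from 9.89 counts per 1000000 UMIs (CPM) for NKX2-2 in CHLA9 to 2511 CPM for CCND1 in CHLA9. The leukocyte and endothelial marker lists summed to at most 0.223 CPM in a line. Of the epithelial list, EPCAM had 8 UMIs in CHLA9 and 73 in TC71, KRT14 had 16 and 0, and KRT5 had none in either line. The fibroblast list summed to 97.4 CPM in CHLA9 and 24.95 CPM in TC71, mostly COL1A1 and COL3A1. In CHLA9 and TC71, DCN stood at 13.6 and 2.86 CPM, LUM at 4.76 and 1.29 CPM, and PDGFRA at 9 and 2 UMIs. The part of such cells in the results was not tested. With 1 library per line, the intervals given below are 95% exact intervals for counting error only, and no test between the lines was possible. Line, medium, library and sequencing run cannot be told apart.

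The promoters of 4 members are shown because they belong to the partner pair (S100A10 and ANXA2) or are the S100 gene and the annexin gene that differed most between the lines (S100A6 and ANXA1). Each is the RefSeq sequence of the 250 bases before the transcription start on the coding strand (GRCh38.p14), in lower case with matches to 4 motifs, searched on both strands, in capitals. The positions are chr1:151993860-151994109 (minus strand) for S100A10, chr15:60397987-60398236 (minus strand) for ANXA2, chr1:153535992-153536241 (minus strand) for S100A6 and chr9:73151615-73151864 (plus strand) for ANXA1. The gene spans given below come from GENCODE, whose starts can differ from those of RefSeq. The S100A6 and ANXA2 windows lie inside these spans.
S100A10: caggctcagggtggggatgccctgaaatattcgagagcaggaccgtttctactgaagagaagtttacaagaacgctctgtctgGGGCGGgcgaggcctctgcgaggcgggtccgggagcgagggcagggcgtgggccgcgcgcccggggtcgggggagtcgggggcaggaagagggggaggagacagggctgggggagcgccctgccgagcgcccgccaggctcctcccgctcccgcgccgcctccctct
ANXA2: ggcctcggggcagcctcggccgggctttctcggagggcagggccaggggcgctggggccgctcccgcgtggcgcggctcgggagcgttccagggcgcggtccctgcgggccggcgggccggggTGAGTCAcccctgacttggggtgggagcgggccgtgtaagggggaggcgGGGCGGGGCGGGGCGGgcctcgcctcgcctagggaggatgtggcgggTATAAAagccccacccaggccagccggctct
S100A6: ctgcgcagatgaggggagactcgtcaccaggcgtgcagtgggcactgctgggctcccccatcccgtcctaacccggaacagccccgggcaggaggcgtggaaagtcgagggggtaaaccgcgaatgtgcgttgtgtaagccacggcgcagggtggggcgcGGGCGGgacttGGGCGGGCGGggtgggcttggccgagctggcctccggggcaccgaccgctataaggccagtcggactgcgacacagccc
ANXA1: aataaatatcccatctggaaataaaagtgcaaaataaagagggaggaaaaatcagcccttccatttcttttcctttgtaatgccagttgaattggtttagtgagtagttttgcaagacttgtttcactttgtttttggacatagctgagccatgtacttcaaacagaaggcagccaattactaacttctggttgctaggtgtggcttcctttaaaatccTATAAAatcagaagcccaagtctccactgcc

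The motifs were the AP-1 heptamer (TGANTCA), a tandem of the ETS core of the kind that EWSR1-FLI1 binds in longer repeats (GGAAGGAA), a TATA box (TATAAA) and a GC box (GGGCGG). They occurred in 6.57%, 3.06%, 10.7% and 42.6% of 35116 RefSeq promoter windows of the same length. The S100A10 window held 1 GC box, the S100A6 window 3 and the ANXA2 window 3, and ANXA2 also had 1 AP-1 heptamer and 1 TATA box. The ANXA1 window held 1 TATA box, no CG dinucleotide and 38.4% G or C bases, against 24 CG dinucleotides and 71.2% for S100A10. The median over all windows was 11 CG dinucleotides and 58% G or C. None of the 4 windows held the GGAA tandem. These matches describe the sequence and were not tested against the levels below.

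Between the lines, 5 of the 10 members were higher in TC71 by 2-fold or more (S100A4, S100A10, S100A13, ANXA1 and ANXA5), 2 were higher in CHLA9 (S100A6 and S100A16), and S100A11, ANXA2 and ANXA6 lay within 2-fold. Among all 10774 genes with at least 5 CPM in either line, 10.5% were higher in TC71 and 17.5% in CHLA9 by 2-fold or more. The members were counted without a minimum level, and the shares without one were 20.1% and 31.1% of 23998 genes. S100A16 did not reach 5 CPM in either line, and S100A4, S100A6 and S100A10 reached it in 1 line only. The median log2 ratio of CHLA9 over TC71 was 0.21 over all genes tested and -0.64 over the 10 members. Libraries of this kind count transcript ends, so that levels were not divided by gene length.

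**Figure D1:**
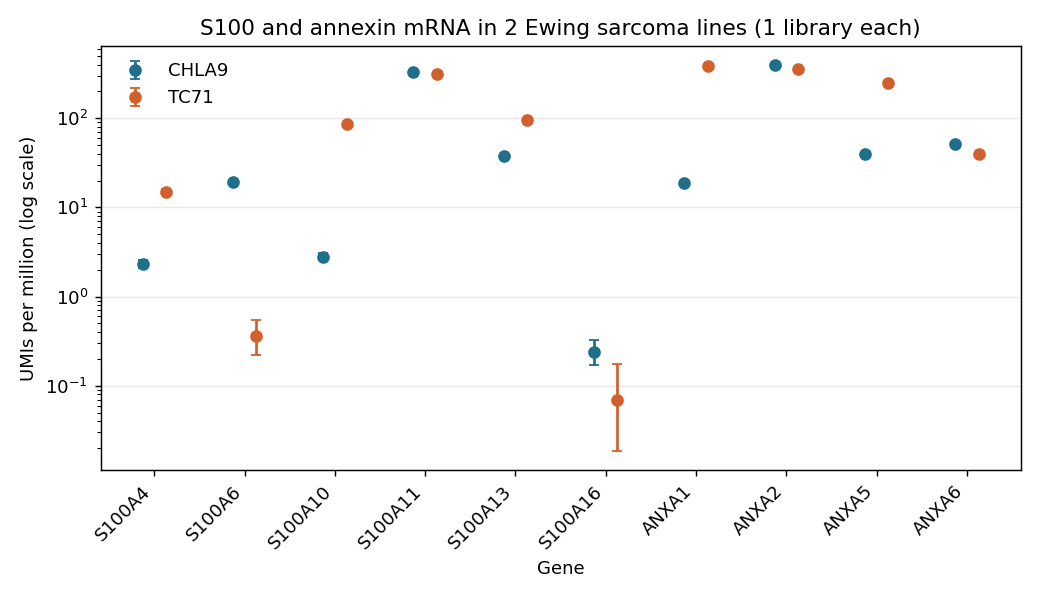
Level of each of the 10 genes in CHLA9 and TC71, as CPM on a log scale, with 95% Poisson intervals (smaller than the point where not visible) and 1 library per line. S100A10 and ANXA1 sit far higher in TC71 and S100A6 in CHLA9, while the points of S100A11 and ANXA2 (313 to 391 CPM) lie side by side.

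S100A10 (chr1:151982915-151993859, minus strand), the ANXA2 partner, had 490 UMIs in CHLA9 and 5015 in TC71. This was 2.80 CPM (interval 2.56 to 3.06) against 85.9 CPM (83.6 to 88.4), or 30.7-fold more in TC71 (28.0 to 33.7). With cells thinned at random to an equal depth of 10000 UMIs, 14 CHLA9 and 59 TC71 cells below it being left out, 2.48% of CHLA9 cells and 50.8% of TC71 cells held an S100A10 UMI. Without thinning these shares were 8.31% and 82.4%. Neither library holds a cell type that should lack these genes, so the share that free RNA gives could not be measured. The CHLA9 counts were uneven over cells. Of 376 cells with a UMI, 335 had exactly 1, whereas 2 cells had 39 and 25, followed by 6 in the next. These 2 cells, singled out after their values were seen, held 13.1% of the S100A10 UMIs of the line. Without them S100A10 stood at 2.44 CPM in CHLA9 and 35.3-fold higher in TC71.

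S100A6 (chr1:153534599-153536244, minus strand), which binds the calcyclin-binding protein CACYBP, went the other way. It had 3401 UMIs in CHLA9, or 19.4 CPM (18.8 to 20.1), and 21 in TC71, or 0.360 CPM (0.223 to 0.550). The fold difference of 54.0 (35.3 to 87.4) was the widest of the 10 members. At 10000 UMIs the gene was seen in 15.7% of CHLA9 cells and 0.359% of TC71 cells. CACYBP itself was level, at 363 CPM in CHLA9 and 368 CPM in TC71. The gene body overlaps an antisense long noncoding RNA.

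S100A4 (chr1:153543613-153550136, minus strand), which binds the heavy chain of non-muscle myosin, stood at 2.31 CPM (2.09 to 2.55) in CHLA9 and 15.03 CPM (14.1 to 16.1) in TC71, a 6.51-fold difference. The gap to S100A6 on the same strand is 7.37 kb, and the 2 genes differed between the lines in opposite directions. MYH9, the myosin heavy chain, was higher in CHLA9 at 165 CPM against 74.9 CPM. S100A3, which overlaps S100A4 on its strand, had 14 UMIs in CHLA9 and 5 in TC71.

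S100A13 (chr1:153618787-153631360, minus strand), a carrier in the release of signal proteins that lack a leader peptide, was 2.54-fold higher in TC71, at 96.0 CPM (93.5 to 98.6) against 37.8 CPM (36.9 to 38.7). FGF1 and IL1A, cargoes known for this route, had at most 3 UMIs in either line. S100A16 (chr1:153606886-153613145, minus strand) was near the limit of detection, with 42 UMIs in CHLA9 and 4 in TC71, and the interval of its 3.50-fold difference ran from 1.27 to 13.4.

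S100A11 (chr1:152032506-152047907, minus strand), the ANXA1 partner, was the most abundant S100 mRNA of both lines. It stood at 327 CPM (325 to 330.0) in CHLA9 and 313 CPM (309 to 318) in TC71 and was seen in 87.8% and 93.1% of thinned cells. The log2 ratio of 0.06 turned to -0.15 when ratios were centred on the median of all genes, so that no direction can be read from it. The annotation lists 8 S100A11 pseudogenes, none of which is counted in the deposited tables, and reads shared with them could not be followed.

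ANXA1 (chr9:73151865-73170393, plus strand), known as a mediator in the resolution of inflammation, was the annexin that differed most. It had 3302 UMIs in CHLA9, or 18.9 CPM (18.2 to 19.5), and 22582 in TC71, or 387 CPM (382 to 392), a 20.5-fold difference (19.8 to 21.3). It was seen in 11.6% of thinned CHLA9 cells and 95.6% of thinned TC71 cells. The partners thus differed unequally: the S100A11 level was within 2-fold in the 2 lines and the ANXA1 level was not.

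ANXA5 (chr4:121667946-121696995, minus strand), which binds phosphatidylserine and is used to stain dying cells, was 6.13-fold higher in TC71, at 246 CPM against 40.1 CPM, with an interval of the fold from 5.96 to 6.31. A UMI was found in 90.2% of thinned TC71 cells and 29.2% of thinned CHLA9 cells.

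ANXA2 (chr15:60347134-60402883, minus strand) was level between the lines while its partner S100A10 was not. It had 391 CPM (388 to 394) in CHLA9 and 360.4 CPM (356 to 365) in TC71, and 96.3% and 95.7% of thinned cells held a UMI. The log2 ratio of 0.12 became -0.09 with the median of all genes as the center. The annotation lists 3 ANXA2 pseudogenes, none of them counted either. In CHLA9 the pair stood at a mean of 3.87 ANXA2 and 0.0277 S100A10 UMIs per thinned cell, and in TC71 at 3.57 and 0.848. ANXA6 (chr5:151100706-151157815, minus strand), an annexin with a doubled core, was at 51.6 CPM (50.5 to 52.7) in CHLA9 and 40.1 CPM (38.5 to 41.7) in TC71.

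Ordered by level, CHLA9 ran ANXA2, S100A11, ANXA6, ANXA5, S100A13, S100A6, ANXA1, S100A10, S100A4 and S100A16. In TC71 the order was ANXA1, ANXA2, S100A11, ANXA5, S100A13, S100A10, ANXA6, S100A4, S100A6 and S100A16. S100A6 and ANXA1 in CHLA9 were the sole neighbors whose intervals overlapped. ANXA1 thus stood in the seventh place in one line and in the first in the other.

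The other genes of both families were mostly low. Of 15 other S100 genes 1 reached 5 CPM, S100B, a protein of glia and neural crest derivatives, at 9.98 CPM in CHLA9 and 0.274 CPM in TC71. S100A1, which overlaps S100A13 on the opposite strand, stood at 2.73 CPM in CHLA9 against 0.634 CPM in the other line, a CHLA9 level close to that of S100A10. S100A8, which with S100A9 forms the calprotectin of myeloid cells, had no UMI in either line, and S100A9 had 6 in CHLA9. Of 9 other annexins 3 reached 5 CPM, ANXA4, ANXA7 and ANXA11, and all 3 were within 2-fold. ANXA11, a partner of S100A6, stood at 51.1 CPM in CHLA9 and 53.4 CPM in TC71.

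Among 20 known partners and targets, 8 reached 5 CPM. Of these, 2 were higher in CHLA9 by 2-fold or more, against 17.5% of all genes, and 6 were within 2-fold. The 2 were MYH9 and AHNAK, the giant scaffold that S100A10 and ANXA2 bind, at 196 CPM in CHLA9 and 66.1 CPM in TC71. AHNAK was therefore higher in the line with less S100A10. The plasminogen activator PLAT, which the pair binds at the cell surface, was at 1.67 CPM and 1.66 CPM, and plasminogen itself (PLG) had 2 UMIs in each line. Among other calcium-binding proteins, SRI, the penta-EF-hand protein sorcin, stood at 83.8 CPM in CHLA9 and 196 CPM in TC71.

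The 6 S100 members lie on chromosome 1. S100A10 and S100A11 start 54.0 kb apart, and S100A6, S100A4 and S100A13 follow 1542 to 1638 kb from the start of S100A10. Between 151482915 and 154131360, from 500 kb before the first of these genes to 500 kb after the last, the tables held 112 genes, of which 22 reached 5 CPM in a line and 17 of these were not members. Of the 17, 6 were higher in CHLA9, 2 in TC71 (TDRKH and THEM4) and 9 were within 2-fold, with a median log2 ratio of 0.82. Over all 10774 genes the shares were 17.5% higher in CHLA9 and 10.5% in TC71, with a median log2 ratio of 0.21. THEM4, a thioesterase gene whose start lies at -84.2 kb from that of S100A10, was at 5.54 CPM in CHLA9 and 20.4 CPM in TC71. S100A11 on the other side was level, and none of the other genes reached the -4.94 of S100A10 or the 5.76 of S100A6.

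**Figure D2:**
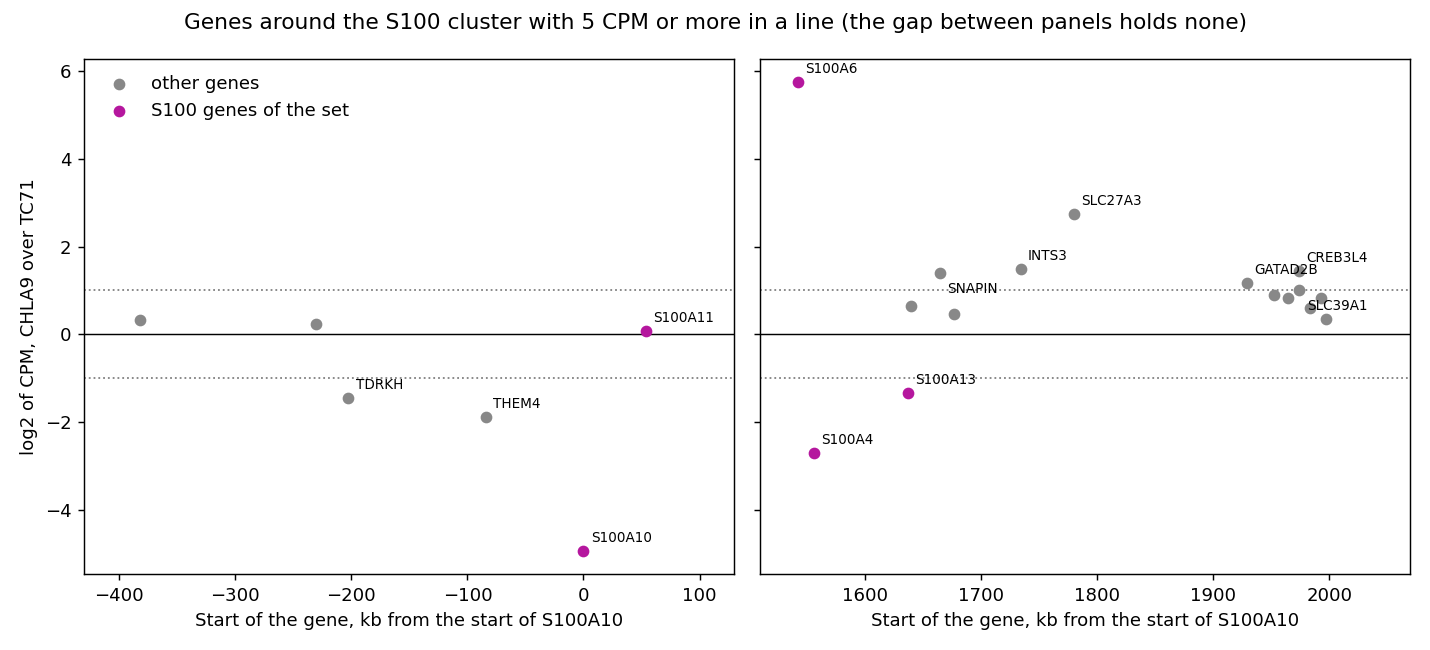
Log2 ratio of CHLA9 over TC71 for the 22 genes with at least 5 CPM around the S100 genes on chromosome 1, by distance of their start from that of S100A10 in kb, with dotted lines at 2-fold. S100A6 and S100A10 lie beyond all of the other genes at the top and bottom, and S100A11 lies next to 0.

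Within a line, S100A11, ANXA2 and, in TC71, ANXA1 varied over cells by more than counting and by more than the median gene of similar level. Thinned counts drawn at random would have a variance over mean of about 1. In CHLA9 the ratio was 2.52 for S100A11, in the 13th place of 534 genes with a mean of 2 to 5 UMIs, whose median was 1.13. ANXA2 had 1.39 there and ranked 76. In TC71, ANXA1 was the most variable member with a ratio of 1.93, in the 15th place of 486 genes with a median of 1.17, while ANXA5 was at 1.09 and ranked 403. S100A11 ranked 55 in TC71 with 1.40, so that its spread was much closer to that of the other genes than in CHLA9.

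Over the 1670 thinned TC71 cells, S100A10 and ANXA2 had a Spearman's rho of 0.152. ANXA2 was in the sixth place among 5933 genes ranked by rho with S100A10, and S100A10 in the fifth place for ANXA2. For S100A10 the central 90% of genes lay between -0.0547 and 0.0523. The ranked genes were not matched for level. Those ahead of ANXA2 had means of 12.5 (VIM) to 33.3 (RPS24) UMIs per thinned cell, against 3.57 for ANXA2. How far such places follow abundance was not tested. S100A10 with ANXA2 stood at 0.205 in G1 cells, 0.115 in S cells and 0.141 in G2M cells. The value was 0.113 with another seed for the thinning, 0.0538 at 5000 UMIs, 0.219 without thinning, and 0.0908, 0.120 and 0.228 in the lower, middle and upper tercile of cells by mitochondrial percent. In the 4510 thinned CHLA9 cells rho was 0.0287. S100A10 was too sparse there for that value to be read. The cells of a line share 1 library, and rho is given as a description.

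The other pairs with a rho above 0.1 in TC71 were ANXA1 with ANXA2 (0.172), S100A10 with ANXA1 (0.129) and S100A10 with S100A11 (0.102). With another seed these were 0.171, 0.0685 and 0.0632, and at 5000 UMIs 0.115, 0.0888 and 0.0316, so that ANXA1 with ANXA2 alone stayed above 0.1 in both. The known partners S100A11 and ANXA1 had 0.0563 in TC71 and 0.0207 in CHLA9, below these. In CHLA9 the highest value of any pair was 0.0694, for ANXA1 with ANXA2. ANXA1 had a mean of 0.169 UMIs per thinned cell there, under the minimum of 0.2 for ranked genes. The CHLA9 values of its pairs therefore cannot be set against those of TC71. S100A16 had no UMI in thinned TC71 cells and is without a value there.

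**Figure D3:**
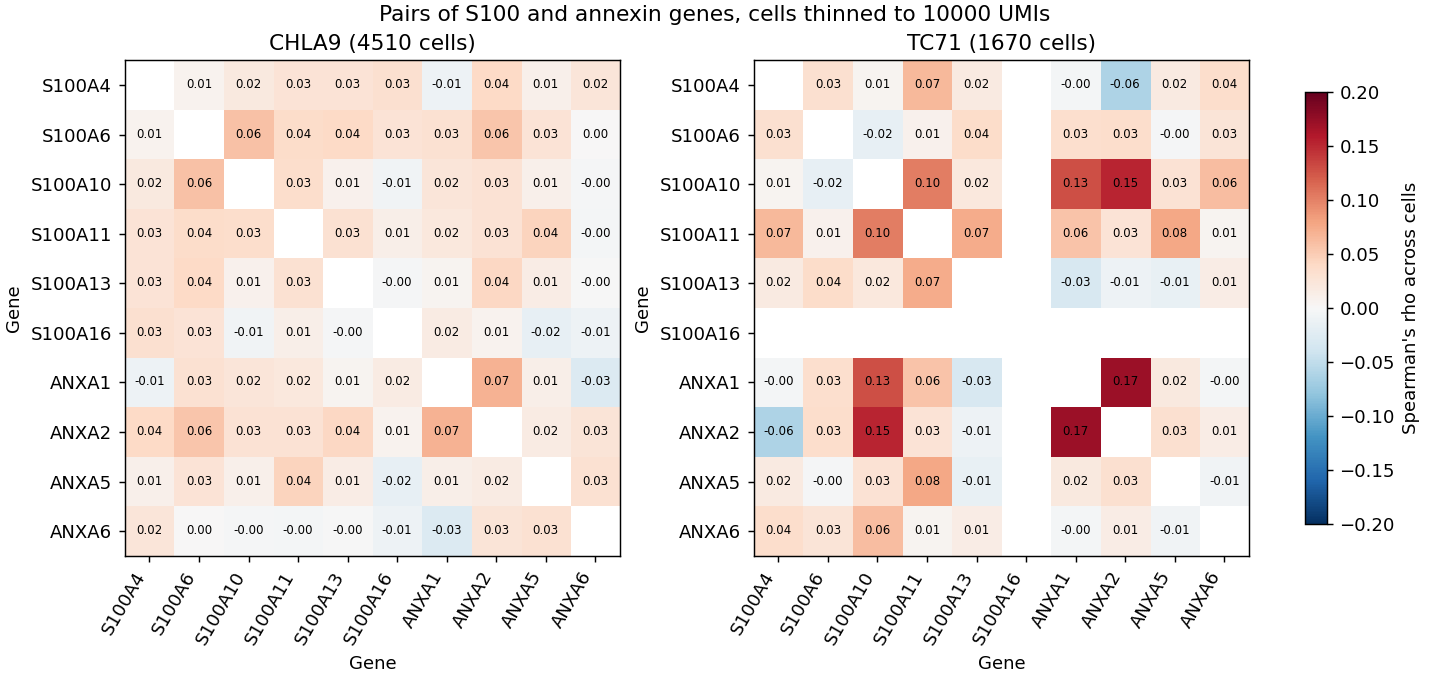
Spearman's rho of each pair of members over 4510 CHLA9 cells and 1670 TC71 cells thinned to 10000 UMIs, printed in each square and colored from -0.2 to 0.2. In TC71, S100A10, ANXA1 and ANXA2 have values of 0.129 to 0.172 (0.0685 to 0.171 with another seed), and in CHLA9 every pair is at or under 0.0694. S100A10 and ANXA1 are sparse in CHLA9, so their values there cannot be set against those of TC71.

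Several of these members shared their first-ranked gene, in rankings that were likewise not matched for level. VIM, the mesenchymal intermediate filament vimentin, had the highest rho with S100A10 (0.248), ANXA1 (0.262) and ANXA2 (0.201) in TC71, and also with ANXA1 (0.140) and ANXA2 (0.158) in CHLA9. In TC71, S100A10 was followed by TMSB10 (0.172), a thymosin that binds actin monomers, and GAPDH (0.163). In CHLA9, ANXA2 was followed by FCGRT (0.147) and again TMSB10 (0.136). RPS13 and RPS24, both ribosomal proteins, were among the first 5 for S100A10 and ANXA1 in TC71. In the same cells rho with the mitochondrial percent was -0.126 for S100A10, -0.142 for ANXA1 and -0.120 for ANXA2. With mitochondrial genes left out before thinning, rho with VIM was 0.274 for S100A10, 0.261 for ANXA1 and 0.211 for ANXA2, and S100A10 with ANXA2 was at 0.115. Over the terciles of mitochondrial percent, S100A10 with VIM ran 0.261, 0.276 and 0.152. At 5000 UMIs the VIM values fell to 0.193, 0.177 and 0.0729 for S100A10, ANXA1 and ANXA2.

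Grouped by S100A10 UMIs, with groups chosen after the values were seen, 822 TC71 cells had 0, 511 had 1, 211 had 2 and 126 had 3 or more. Mean ANXA2 was 3.31, 3.56, 4.10 and 4.42 UMIs per thinned cell in these groups. ANXA1 ran 3.47, 3.82, 4.34 and 4.54, and VIM 11.1, 12.7, 14.7 and 17.2. ANXA5 stayed between 2.36 and 2.53. The median mitochondrial percent was 9.22 in the cells with 0 and 8.04 in those with 3 or more.

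S100A11 in CHLA9 went with another set of genes. Its nearest genes were KRT17, an epithelial keratin (rho 0.292), the p53 family member TP73 (0.244), TAGAP (0.207), the growth factor MDK (0.181) and ZNF385A (0.174). From the 552 cells without S100A11 to the 174 cells with 10 or more UMIs, mean KRT17 went from 1.71 (1.60 to 1.82) to 5.25 (4.91 to 5.60) UMIs and TP73 from 0.0906 (0.0672 to 0.119) to 0.753 (0.629 to 0.893). ANXA2 was flat, at 3.67 and 3.86. The proliferation gene MKI67, chosen after its values were seen, went from 4.97 to 2.98, and the share of cells called G1 from 17.2% to 38.5%.

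In TC71 the nearest genes of S100A11 were TIMP1 (0.147), ARPC3, MT2A, CD63 and RPL36, and none of these 5 was among the first 5 in CHLA9. VIM, the top gene of S100A10, ANXA1 and ANXA2 in TC71, came next for S100A11 there, at rank 6 (0.118). Its rho with S100A11 in CHLA9 was -0.0163. KRT17 was at 1.06 CPM in TC71, too low for a comparison. The rho of S100A11 with KRT17 in CHLA9 lay between 0.217 and 0.418 over all settings tried, and that with TP73 between 0.149 and 0.369.

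**Figure D4:**
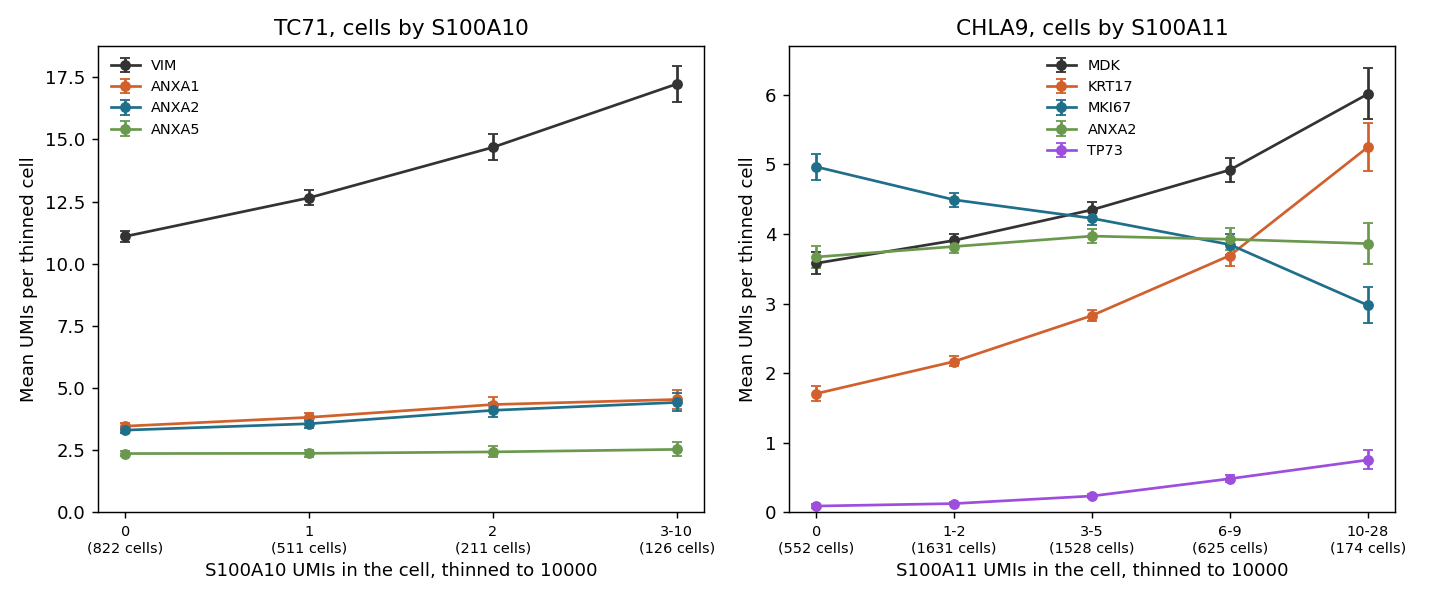
Mean UMIs per cell thinned to 10000 UMIs, with 95% Poisson intervals, of named genes in TC71 cells grouped by S100A10 UMIs (left) and CHLA9 cells grouped by S100A11 UMIs (right), with the cells per group under each. VIM goes from 11.1 to 17.2 on the left with smaller steps in ANXA1 and ANXA2, and on the right KRT17 goes from 1.71 to 5.25 while ANXA2 is flat.

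Most members differed little between the cell cycle phases G1 and G2M. Calls from S and G2M gene scores put 22.8% of CHLA9 cells in G1, 36.6% in S and 40.6% in G2M, and 24.8%, 30.5% and 44.7% of TC71 cells. The TC71 shares depended on the scoring: G1 was 13.1% and S 48.2% when genes in at least 10 cells were used, and 12.04% and 52.5% on thinned cells. Counting only members with at least 5 CPM in the line, 1 of 7 in CHLA9 (S100A11) and 0 of 8 in TC71 were higher in G1 than in G2M by 25% or more, against 6.92% and 2.88% of all genes. None was lower in G1 by the same factor, against 14.1% of all genes in CHLA9 and 21.5% in TC71. The median log2 ratio of G1 over G2M was -0.03 over all genes in CHLA9 and -0.11 in TC71. All 7 and all 8 members lay above it, but the interval of ANXA6 in TC71 (-0.20 to 0.11) included it. This median was not recomputed under the other phase scorings.

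S100A11 stood at 378 CPM in G1, 335 in S and 301 in G2M in CHLA9, a 1.26-fold difference at the edge of the rule. In TC71 it was at 356, 294 and 305 CPM. ANXA2 was at 429 and 362 CPM in G1 and G2M of CHLA9 (log2 0.24) and at 373 and 356 CPM in TC71 (0.06). S100A10 in TC71 was at 98.8 CPM in G1, 78.0 in S and 84.9 in G2M. ANXA1 had its lowest level in S in both lines, at 15.6 CPM in CHLA9 and 362 CPM in TC71. In G1 it stood at 23.1 and 404 CPM. S100A4 in TC71 was at 18.5 CPM in G1, 12.1 in S and 15.2 in G2M. The 25% rule was applied to G1 over G2M alone. The log2 ratio of G1 over S was 0.57 for ANXA1 in CHLA9, and 0.62 for S100A4 and 0.34 for S100A10 in TC71. For the other members counted it was at most 0.28. Shares of all genes were not computed for G1 over S.

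In CHLA9 the few S100A10 UMIs gave 4.86 CPM in G1 and 2.24 CPM in G2M, a 2.17-fold ratio. Both cells with the most S100A10 were called G1, and without them G1 stood at 2.92 CPM and the ratio at 1.30, with a log2 interval from 0.01 to 0.75. The same 2 cells held 85 ANXA1 UMIs. Without them the log2 ratio of G1 over G2M for ANXA1 in CHLA9 went from 0.23 to 0.06. The ANXA1 ratio of G1 over S was not recomputed without them. No member went in opposite directions in the 2 lines beyond counting error.

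**Figure D5:**
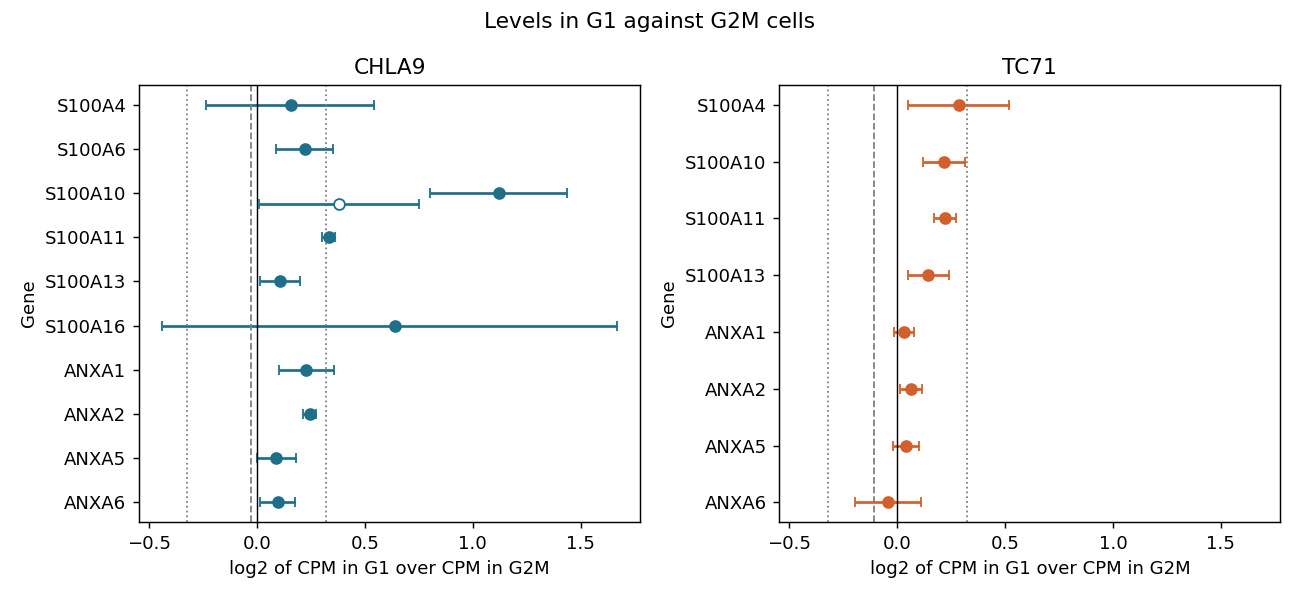
G1 level over G2M level of each gene, as a log2 ratio of CPM, with 95% counting intervals, for members with more than 3 UMIs in both phases, with a dashed line at the median of all genes and dotted lines at a ratio of 25% above 1 and its inverse. The open point is S100A10 without the 2 CHLA9 cells richest in it, which brings it from 1.12 to 0.38. ANXA1 in CHLA9 is drawn with these 2 cells included.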

How the data were processed

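The deposited files are gene-by-barcode matrices of UMI counts, 1 per line, from a 10x Genomics 3' v3.1 kit. The authors made these counts with Cell Ranger 3.1.0 and its hg38 reference, and CHLA9 was sequenced a second time on another instrument. Counts were taken as deposited. Cells were kept as given in the report, and doublets were not removed, since Scrublet in scanpy 1.11.5 called 6.06% of CHLA9 and 0.694% of TC71 cells. UMIs were summed over the cells of a line and scaled to 1000000 (CPM) with exact Poisson intervals, and shares of cells with exact Clopper-Pearson intervals (scipy 1.17.1). Intervals cover counting error only. With 1 sample per line no count model was run. Genes were called at 2-fold between lines and a 25% difference between G1 and G2M (phases scored in Seurat 5.3.0). Background shares and phase counts took genes with at least 5 CPM, and the members' line counts took all 10. Spearman's correlations were computed on cells thinned to 10000 UMIs. Named genes were the members, listed relatives and partners with at least 5 CPM, the 5 genes of highest correlation (mean of at least 0.2 UMIs), and genes from 500 kb before the first to 500 kb after the last S100 member. Some listed genes below 5 CPM were named as well. Other genes named for the 2 CHLA9 cells were picked by their values. They were among the top 12 or bottom 12 there relative to other CHLA9 cells. Positions come from GENCODE 44 (GRCh38) and promoters from RefSeq, with all 10 members matched. The members and lists were chosen with earlier results of these data known. Procedures were tested on simulated data. Alternatives changed the cell filters, doublets, scaling, thinning and phase scoring. A result for 1 listed gene is not reported here.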

Additional observations from a re-analysis of the deposited data

Results flagged for a closer look

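The barcodes under the UMI minimum, which no comparison uses, held member transcripts. In the TC71 barcodes of this kind the 10 members together stood at 1499 CPM, against 1544 CPM in kept cells, with S100A10 at 85.5 CPM and 85.9 CPM, ANXA1 at 372 and 387 CPM, and ANXA2 lower at 276 and 360.4 CPM. In the CHLA9 barcodes the sum was 227 CPM against 891 CPM, with S100A11 at 69.3 and 327 CPM and ANXA2 at 105 and 391 CPM. Whether these barcodes are cells, fragments or free RNA was not tested.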

How the results depend on the processing

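The counts of members higher in CHLA9 (2) and in TC71 (5) were the same under all 10 alternatives run for each. Dropping the CPM minimum repeats the main counts by construction, because members were counted without a minimum. On thinned cells S100A16 had no UMI in TC71 and was counted as higher in CHLA9 without a measurable ratio. The rho of S100A10 with ANXA2 ranged from 0.0538 to 0.228 in TC71 over 15 alternatives and from 0.00193 to 0.0683 in CHLA9 over 16. For this and every other rho, the filter of at least 10000 UMIs repeats the main value, because thinned cells already meet it. The count of members higher in G1 in CHLA9 was 1 and became 0 with at most 10% mitochondrial UMIs (S100A11 at 1.22-fold) and with phases scored on thinned cells (just under the limit, at log2 0.32), and the cause was not tested. The other phase counts were 0 throughout. Among single members, 21 of 89 log2 ratios between lines, 9 of 136 between phases, and 7 of 154 values of rho for other pairs moved past their interval or by over 0.1, and none of those past the fold or rho limit reversed. Alternatives on cell subsets kept the phase calls of all cells. Leaving out the 2 CHLA9 cells, the mitochondrial terciles and thinning without mitochondrial genes were chosen after seeing the data. No paired analysis was possible because there is just 1 library for CHLA9 and 1 for TC71. S100A16 in both lines, S100A6 in TC71 and S100A10 in CHLA9 are limited by their few UMIs.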

Other observations

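The 2 CHLA9 cells richest in S100A10 were unlike the rest of the line in other genes too. Both were chosen after their values were seen. They had 62500 and 56071 UMIs and Scrublet scores of 0.0276 and 0.0256, below the median of 0.0637. ANXA1 gave 29 and 56 UMIs and ANXA2 67 and 73, while S100A6 gave none in either. With S100A6 at 19.5 CPM in the other CHLA9 cells, few UMIs would fall in 2 cells, so its absence cannot be read. TMSB4X, which binds actin monomers, gave 209 and 240 UMIs in them and 428 in all other CHLA9 cells together. The neurofilament gene NEFM gave 31 and 250 against 3 in all others, and the neuropeptide gene NPY 72 and 37 against 7. MMP2, a matrix metalloproteinase, gave 22 and 32 UMIs. KRT17, APOE and the mitotic genes ASPM and CDC20 were at 0 in both, and the long noncoding RNA NEAT1 at 3 and 0. Ewing sarcoma markers were present, with CD99 at 84 and 107 UMIs and STEAP1 at 12 and 22. NKX2-2 was at 0 in both. It stood at 9.89 CPM in the other CHLA9 cells, too low for a 0 in 2 cells to be read.

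On a list of 50 genes that were high in TC71 and low in CHLA9, the 2 cells had 7.36 and 5.17 UMIs per 10000, the next CHLA9 cell 2.02 and the median TC71 cell 35.0. On the matching list of genes high in CHLA9 they had 34.4 and 34.8 UMIs per 10000, against a CHLA9 median of 58.2. TMSB4X and NEFM were at 166 and 12.05 CPM in TC71, against 2.45 and 0.0172 CPM in the other CHLA9 cells. NPY and MMP2 were at 0.274 CPM and 0.360 CPM in TC71. Among the top 12 genes of the 2 cells, SMARCA1, BEX1 and SPARC were at 121, 62.5 and 56.2 CPM in TC71. CES1, MEST and CLU, of the same 12, were at 0.634, 0.651 and 1.32 CPM there. S100A10 and ANXA1, also among the 12, were higher in TC71 than in CHLA9, as given above. The origin of the 2 cells was not tested.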
